A study of Mus musculus with 12 samples.

Results

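The 33 genes described here encode enzymes of glycolysis and of the pentose phosphate pathway, and transporters of the glucose and lactate carrier families. They also encode kinases that inhibit pyruvate dehydrogenase, and parts of the hypoxia-inducible factor (HIF) system. Genes were chosen by name: a record belonged to the set when its name in the deposited expression table equalled any of the 33 symbols. No measured value entered this rule, but the symbols were chosen with earlier results of these data known. The rule gave 34 records of the 53801 in the table, because the aldolase gene Aldoa has 2 records. All but 1 of the 34, 33 records, reached 1 FPKM (a fragment count divided by transcript length and by library size, so that levels of different genes can be compared) in at least 3 of the 12 libraries and were tested. The lactate dehydrogenase gene Ldhb was listed at 0 in all 12 libraries. The second Aldoa record and Egln3 reached 1 FPKM in untreated libraries alone, so they passed this filter only through the groups in which they were higher.

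Glycolysis breaks glucose down to pyruvate in the cytosol, and the pentose phosphate pathway branches off after the first step to make NADPH and ribose sugars. HIF-1 is a transcription factor whose alpha subunit, encoded by Hif1a, is marked for destruction by prolyl hydroxylases while oxygen is present, and many glycolytic genes are among its known targets. Macrophages that meet bacterial lipopolysaccharide (LPS) are known to take up more glucose and to release more lactate, and HIF-1alpha is known to take part in that switch.

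All libraries came from RAW264.7, a mouse macrophage-like tumour cell line, at passages 3 to 5. Cells carried either siRNA against Synbindin, the product of Trappc4 and a subunit of the TRAPP complexes that tether vesicles between endoplasmic reticulum and Golgi, or a control siRNA. Each kind was sequenced after 4 hours of 100 ng/ml LPS and without LPS, as strand-specific libraries of total RNA. The groups, of 3 libraries each, were therefore silenced cells with LPS, control cells with LPS, silenced cells without LPS and control cells without LPS. Whether the 3 libraries of a group stem from separate transfections is not stated, and p-values therefore measure only their spread, which may be technical.

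Trappc4 was 4.35, 7.17 and 6.15 FPKM in silenced cells without LPS, against 14.1, 13.1 and 12.5 FPKM in control cells without LPS. With LPS it was 5.86, 7.71 and 8.26 FPKM in silenced cells, against 13.8, 15.7 and 9.45 FPKM in control cells. Every silenced library was thus below every control library of its time, with 44.5% of the control level left without LPS and 56.1% left with LPS, although neither difference passed the test across all genes (limma adjusted p = 0.0558 without LPS and 0.12 with LPS; exact 2-sided permutation p = 0.1 at both times, the smallest that 3 against 3 allows). All 11 records of 10 macrophage markers reached 1 FPKM, and no record of the B cell, T and NK cell, neutrophil, fibroblast or epithelial markers did. Sequencing depth was not stated. A rough estimate from the step size of low FPKM values gave 13.6 to 17.7 M (mega) fragments in silenced cells with LPS and 10.2 to 13.0 in control cells with LPS. It gave 7.41 to 12.4 in silenced cells without LPS and 7.86 to 11.7 in control cells without LPS. Only 7.27 to 14.1% of those low values were whole steps at a tolerance of 1%, so the estimate is weakly founded. In bulk RNA of this kind, fewer cells that express a gene and less of its RNA per cell cannot be told apart.

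The set spans a wide range of levels. On the genes' own records and averaged over the 12 libraries, pyruvate kinase Pkm was highest at 717 FPKM, followed by phosphoglycerate kinase Pgk1 at 430.2 FPKM, lactate dehydrogenase Ldha at 285 FPKM, phosphoglycerate mutase Pgam1 at 223 FPKM and Aldoa at 212 FPKM. Of these, Pkm, Pgk1 and Pgam1 belong to the lower, energy-yielding part of glycolysis, as does Gapdh, which averaged only 27.4 FPKM on its own record. The ranges of neighbours in this order overlapped: Pgam1 spanned 187 to 274 FPKM and Aldoa 172 to 256 FPKM over the 12 libraries. Hexokinases, phosphofructokinases, Hif1a and the HIF prolyl hydroxylase Egln1 lay between 8.84 FPKM (Pfkm) and 35.6 FPKM (Hk3). With near-identical copies in the table added, which are described below, the order of the sums differs: Gapdh averaged 3298 FPKM and Eno1 777 FPKM, against 745 FPKM for Pkm, and Eno1 was above Pkm in 9 of the 12 libraries. How reads shared by copies were counted is not given, so such sums may hold the same reads more than once. They do not show which gene was highest. The lowest were the regulators Pfkfb3 and Pfkfb4 with 4.65 and 4.35 FPKM, the second Aldoa record with 0.708 FPKM and Egln3 with 0.557 FPKM.

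After 4 hours of LPS, 2 tested records rose and 12 fell in silenced cells, and 7 rose and 10 fell in control cells (limma on log2(FPKM + 1), Benjamini-Hochberg adjusted p under 0.05 over all 13078 genes tested). The falls include the second Aldoa record and, in silenced cells, Egln3, which were tested only because of their untreated levels. The background was high: 48.5% of all genes were called for LPS in silenced cells (13.0% higher, 35.5% lower) and 48.2% in control cells (15.3% higher, 32.9% lower). The glucose transporters Slc2a1 and Slc2a6 rose in both. Hk1, Pfkfb4, the second Aldoa record, Pgam1, Slc16a1, Pdk1, Egln1, Bnip3 and G6pdx fell in both, Pgam1 in control cells only as deposited, under a common sum and under quantile normalization (its log2 fold change there was 0.01 under median-ratio scaling). The median log2 fold change of the 33 records was −0.16 in silenced cells and 0.07 in control cells, beside −0.21 and −0.17 over all genes tested in these cells. When 1 library was left out, the silenced median was −0.079 to −0.23, nearest 0 without replicate 3 of untreated silenced cells. The control median was 0.026 and 0.027 without replicate 1 of control cells with and without LPS, and 0.13 without replicate 3 of untreated control cells.

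The split between higher and lower calls depended on how the libraries were scaled, which was tried in 4 ways: as deposited, to a common sum, by median ratios and by quantiles. With median-ratio scaling, which puts the median of all genes at 0.01 in both kinds of cells, 7 records were called higher and 8 lower in silenced cells (22.7% and 21.7% of all genes), and 13 higher and 5 lower in control cells (24.1% and 22.5% of all genes). The median of the records was then 0.10 in silenced cells, where its sign turned, and 0.29 in control cells. Under quantile normalization 1 was higher and 14 lower in silenced cells (17.2% and 25.7% of all genes), and 2 higher and 9 lower in control cells (19.2% and 25.7% of all genes), with medians of the records of −0.22 and −0.048 in these cells. Estimated depth, which is weakly founded, was tried as a covariate after seeing the data. The median was then −0.38 in silenced cells and −0.13 in control cells, where its sign turned. The silenced calls of Slc2a1, Pfkfb4, Pgd, G6pdx and Egln3 were then lost (limma adjusted p = 0.0527 to 0.63). In control cells those of Pfkfb4, Taldo1, Pkm and Pgk1 were lost (limma adjusted p = 0.0618 to 0.131). With this covariate 1 record was higher and 18 lower in silenced cells (9.83% and 22.8% of all genes). In control cells 5 were higher and 12 lower (14.2% and 28.5% of all genes). The depth estimates of silenced cells with and without LPS did not overlap, so this fit cannot fully separate depth from LPS there. Fold changes below are on the log2(FPKM + 1) scale from the deposited values, so a gene that moved with the median of all genes stands near −0.21 in silenced cells and near −0.17 in control cells. Slc2a6 (higher) and Hk1, Slc16a1 and Pdk1 (lower) were called in the same direction under all 4 scalings in both kinds of cells. So was the second Aldoa record (lower), but it passed the filter only through untreated libraries, and rescaling does not test that selection.

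**Figure D1:**
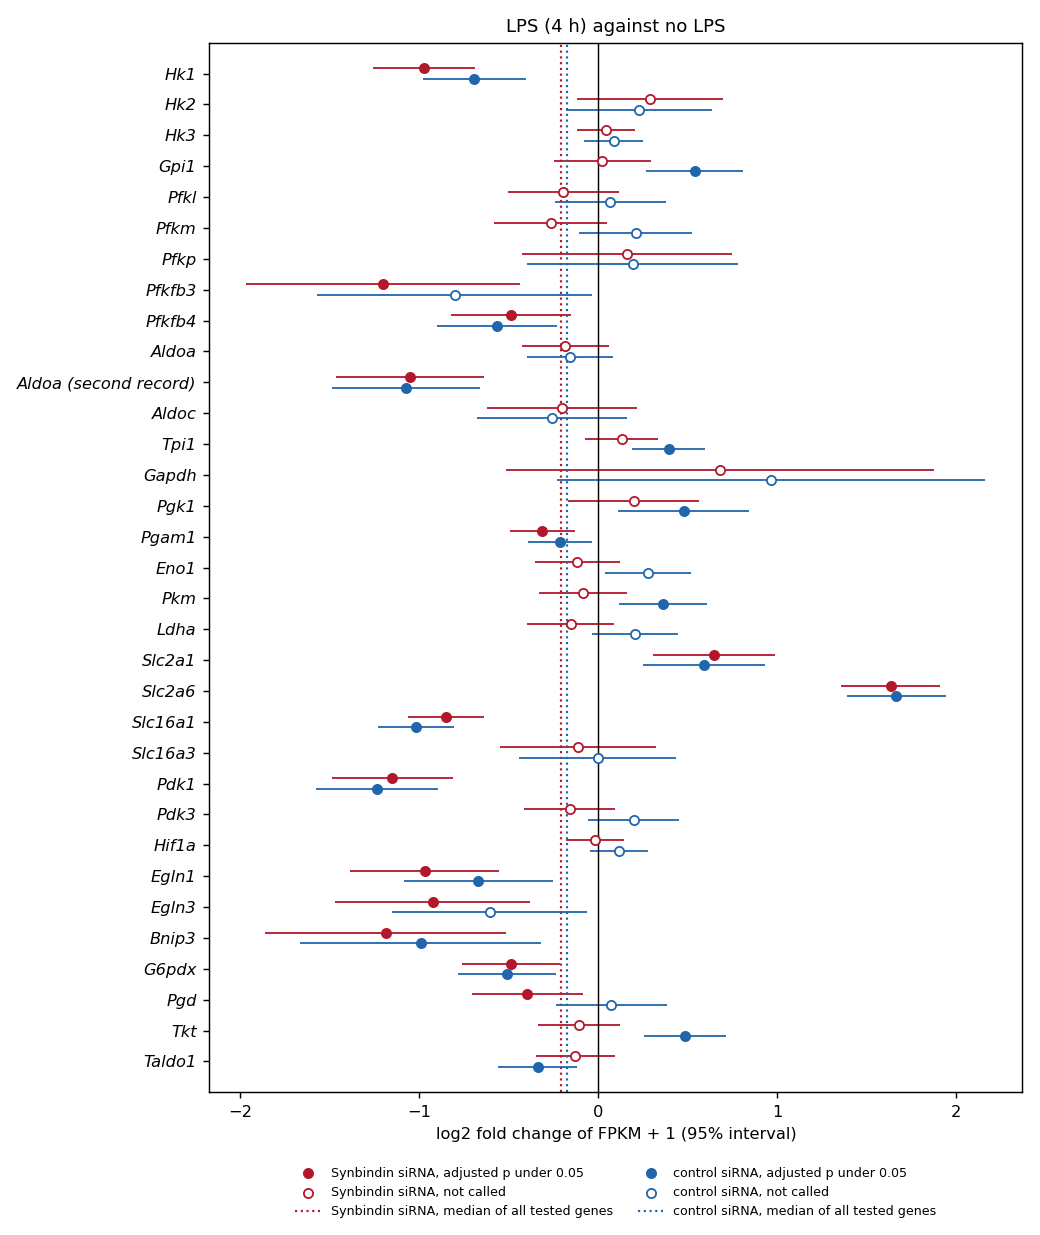
Log2 fold change of FPKM + 1 (x axis) for LPS against no LPS in silenced cells (red, upper point of each pair) and control cells (blue, lower point), for the 33 tested records (y axis); lines are 95% intervals from limma, filled points have an adjusted p under 0.05 and dotted lines mark the median of all tested genes. Slc2a6 lies farthest to the right at 1.63 and 1.66, and Pdk1, Slc16a1, Bnip3 and Hk1 lie to the left in both; the Pgam1 value of control cells is 0.01 under median-ratio scaling.

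Among the transporters, Slc2a6, a facilitative sugar transporter of the glucose transporter family (protein GLUT6), had the largest rise of the set. Slc2a6 had 36.6, 33.7 and 32.0 FPKM in silenced cells with LPS, against 10.2, 10.7 and 10.0 FPKM in silenced cells without it. The values of Slc2a6 in control cells were 26.3, 21.7 and 30.9 FPKM with LPS, against 7.24, 6.67 and 8.80 FPKM without. The LPS and untreated libraries did not overlap, and the log2 fold change was 1.63 ± 0.13 (SE) in silenced cells (limma adjusted p = 1.3e-06) and 1.66 ± 0.13 in control cells (limma adjusted p = 1.28e-06). Slc2a1 encodes GLUT1, the main basal glucose carrier of many cells, and started from a level several times higher. Slc2a1 had 115, 103 and 107 FPKM in silenced cells with LPS, against 62.7, 55.8 and 93.4 FPKM in silenced cells without it. With control siRNA, Slc2a1 had 103, 87.8 and 104 FPKM with LPS, against 63.0, 62.3 and 69.3 FPKM without. All LPS libraries of Slc2a1 stood above the untreated libraries of the same siRNA, at 0.64 ± 0.15, adjusted p = 0.00482 in silenced cells and 0.59 ± 0.15, adjusted p = 0.00825 in control cells, and this call was lost under quantile normalization (adjusted p = 0.0518 and 0.0985 in these cells). As a share of the summed FPKM of both transporters, Slc2a6 made up 23.1 to 24.6% in silenced cells with LPS, 19.8 to 22.9% in control cells with LPS, 9.7 to 16.0% in silenced cells without LPS and 9.67 to 11.3% in control cells without LPS.

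The lactate carriers parted company. Slc16a1 encodes MCT1, which moves lactate in either direction. Slc16a1 had 25.3, 25.2 and 29.1 FPKM in silenced cells with LPS, against 50.9, 50.5 and 44.6 FPKM in silenced cells without it. Control cells had 21.0, 23.3 and 24.4 FPKM of Slc16a1 with LPS, against 48.8, 50.9 and 42.6 FPKM without. Every LPS library was below every untreated one, and Slc16a1 fell by 0.85 ± 0.10 in silenced cells and fell by 1.02 ± 0.10 in control cells (limma adjusted p = 2.52e-05 and 6.84e-06). Slc16a3, which encodes MCT4, the carrier known for lactate export from glycolytic cells, was not called, with −0.11 ± 0.20 in silenced cells and −0.0031 ± 0.20 in control cells, and its groups overlapped. Slc16a1 held 39.7 to 43.9% of their summed FPKM in silenced cells with LPS and 36.3 to 40.3% in control cells with LPS, against 45.3 to 60.4% and 46.6 to 61.1% in the same cells without LPS. It was thus the more abundant of the 2 in replicates 1 and 2 without LPS, and Slc16a3 was in replicate 3 without LPS and in all LPS libraries.

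**Figure D2:**
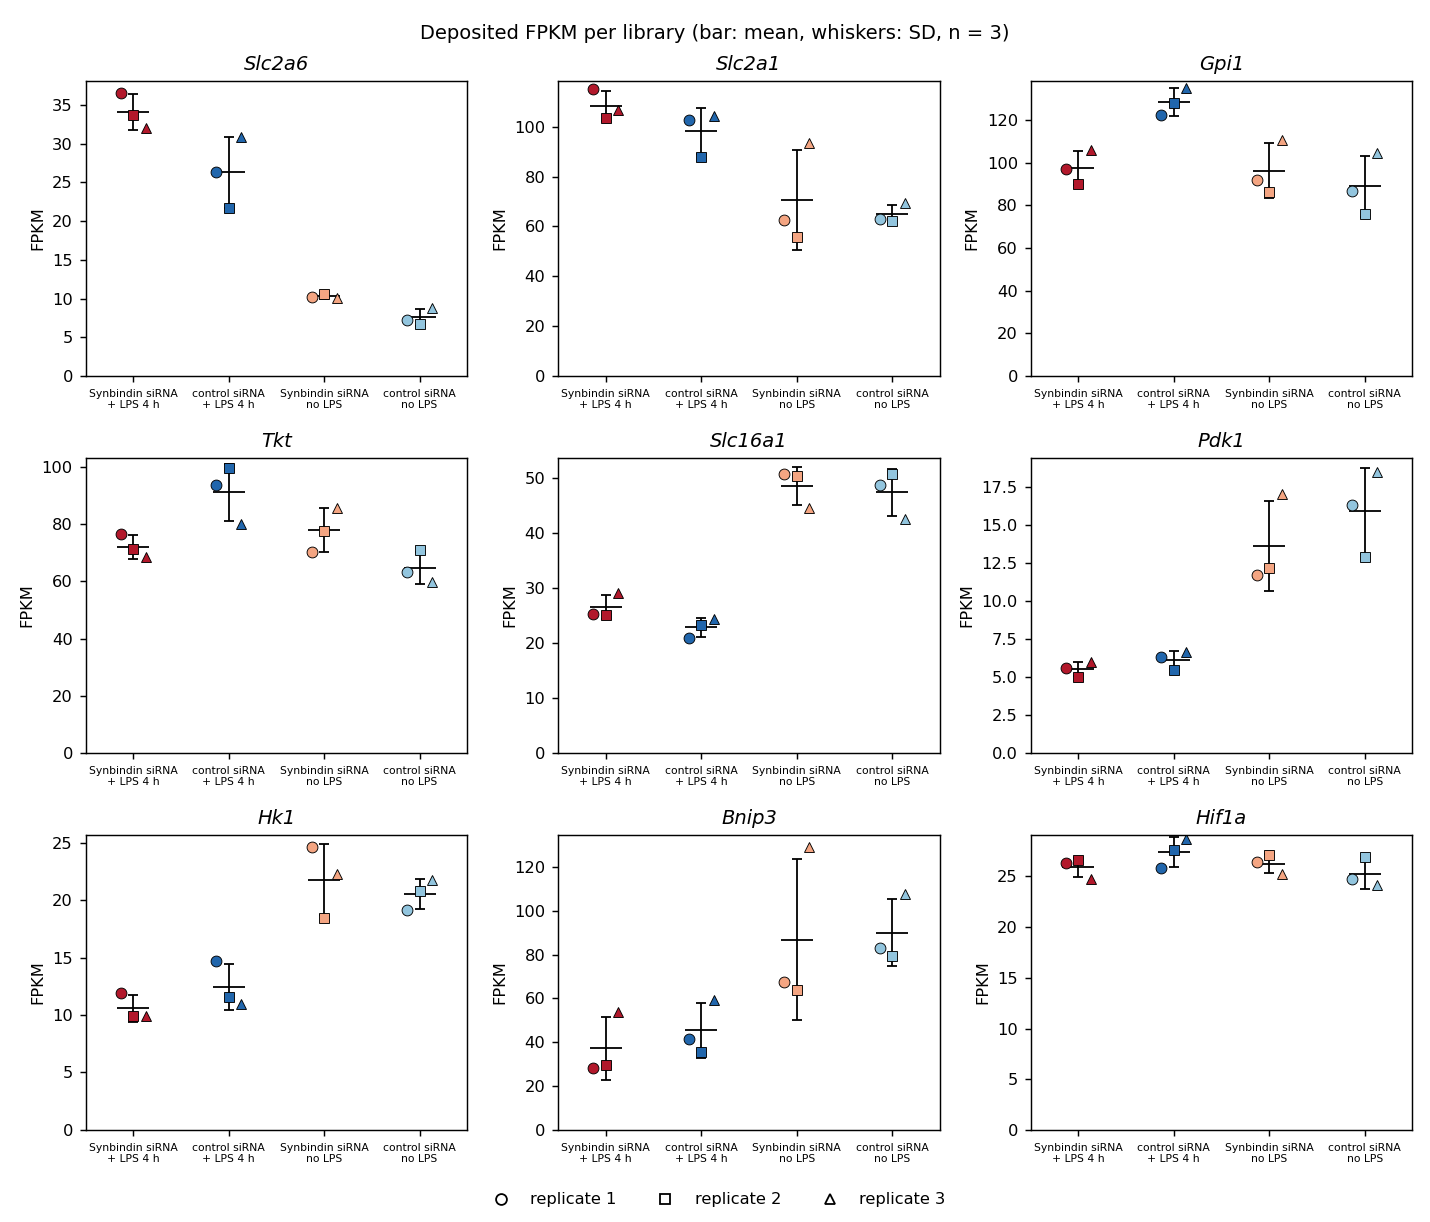
FPKM of 9 genes (y axes, from 0) in each library, by group from left to right: silenced cells with LPS, control cells with LPS, silenced cells without LPS and control cells without LPS; circles, squares and triangles are replicates 1, 2 and 3, horizontal bars are means and whiskers SDs (n = 3). Slc2a6 and Slc2a1 are higher in the LPS groups, Slc16a1, Pdk1, Hk1 and Bnip3 are lower in them, and the Hif1a values are 24.1 to 28.7 FPKM over all groups.

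The stretches just before the starts of 4 of these genes are shown. Of these, Slc2a1, Pgk1 and Bnip3 are known HIF targets that differed in their response to LPS, and Slc2a6 had the largest rise of the set. The sequences are the 250 bases before the RefSeq start, from RefSeq on build GRCm38.p6, written 5′ to 3′ on the gene's strand, with each HIF core (ACGTG or GCGTG, on either strand, so also CACGT or CACGC) in capitals. They lie at chr2:27027999-27028248, minus strand; chr4:119108495-119108744, plus strand; chrX:106186850-106187099, plus strand; and chr7:138909507-138909756, minus strand.
Slc2a6: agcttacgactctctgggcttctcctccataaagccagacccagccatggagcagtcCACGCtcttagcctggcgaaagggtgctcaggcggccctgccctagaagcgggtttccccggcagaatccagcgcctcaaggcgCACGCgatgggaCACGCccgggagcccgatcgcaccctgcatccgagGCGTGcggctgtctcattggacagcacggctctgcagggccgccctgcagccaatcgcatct
Slc2a1: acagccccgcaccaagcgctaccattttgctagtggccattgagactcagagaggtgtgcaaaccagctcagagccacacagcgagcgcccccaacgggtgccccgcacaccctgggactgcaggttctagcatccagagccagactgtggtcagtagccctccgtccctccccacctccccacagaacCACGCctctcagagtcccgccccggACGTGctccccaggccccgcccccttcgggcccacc
Pgk1: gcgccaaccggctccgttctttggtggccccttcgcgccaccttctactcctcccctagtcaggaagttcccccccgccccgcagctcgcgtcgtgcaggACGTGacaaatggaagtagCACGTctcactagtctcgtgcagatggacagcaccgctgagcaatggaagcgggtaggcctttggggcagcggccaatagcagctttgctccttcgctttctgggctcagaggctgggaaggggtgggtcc
Bnip3: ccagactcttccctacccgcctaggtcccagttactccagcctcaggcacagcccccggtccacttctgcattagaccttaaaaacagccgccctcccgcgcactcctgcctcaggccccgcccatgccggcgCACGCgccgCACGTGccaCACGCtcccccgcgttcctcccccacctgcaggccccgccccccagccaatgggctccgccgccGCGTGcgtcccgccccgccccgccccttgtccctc

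The Slc2a6 stretch held 4 HIF cores, Slc2a1 and Pgk1 held 2 each, and Bnip3, which fell with LPS, held 5, of which 2 overlap as CACGTG. Over the RefSeq windows from 250 bases before to 50 after each start, 39 of 47 windows of the 33 genes (83.0%) held at least 1 HIF core, against 43.8% of all 32851 windows, and 57.4% held at least 2, against 20.6%. The windows of these genes were also richer in G and C (median 61.0% against 52.7%), and the part of that in the count was not tested. The string GGGNNTTCC, searched for NF-kB on either strand, was in 0 of the 47 windows and in 5.82% of all windows. Forms of the NF-kB motif with a longer spacer were not searched, so the 0 does not show that they are absent. A match is a string of letters in the genome, not a site at which a factor was seen.

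Hexokinases phosphorylate glucose as it enters the cell, and their 3 genes behaved differently. Hk1 had 11.9, 9.93 and 9.88 FPKM in silenced cells with LPS, against 24.6, 18.4 and 22.3 FPKM in silenced cells without it. The values of Hk1 in control cells were 14.7, 11.6 and 10.9 FPKM with LPS, against 19.1, 20.8 and 21.7 FPKM without. Hk1 fell by 0.97 ± 0.13 in silenced cells and fell by 0.69 ± 0.13 in control cells (limma adjusted p = 8.74e-05 and 0.00106). Hk2, the inducible mitochondria-bound hexokinase, ranged over 17.2 to 33.6 FPKM and was not called, with 0.29 ± 0.19 in silenced cells (0.56, adjusted p = 0.039 under median-ratio scaling) and 0.23 ± 0.19 in control cells. Hk3, a form known from myeloid cells, was not called either, with 0.04 ± 0.07 and 0.09 ± 0.07 in the same cells; under median-ratio scaling it was called higher in both (adjusted p = 0.00603 and 0.00705). Hk1 made up 12.1 to 14.8% of the summed hexokinase FPKM in silenced cells with LPS and 14.2 to 19.3% in control cells with LPS, against 23.7 to 27.2% and 27.6 to 28.1% without LPS. Hk3 was the most abundant of the 3 in all 12 libraries except replicate 3 of control cells with LPS, in which Hk2 held 43.7% and Hk3 42.1%.

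Gpi1, the isomerase that turns glucose 6-phosphate into fructose 6-phosphate, rose in control cells. Gpi1 had 97.0, 90.0 and 106 FPKM in silenced cells with LPS, against 91.8, 86.5 and 111 FPKM in silenced cells without it. With control siRNA, Gpi1 had 122.3, 128.2 and 135 FPKM with LPS, against 86.7, 75.8 and 104 FPKM without. The control groups did not overlap, at 0.54 ± 0.12, adjusted p = 0.00379, whereas in silenced cells the values overlapped, at 0.02 ± 0.12, adjusted p = 0.893; the difference between both responses was −0.51 ± 0.18 and was not called (adjusted p = 0.33). The call in control cells was lost under quantile normalization (adjusted p = 0.126).

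The phosphofructokinases Pfkl, Pfkm and Pfkp, which catalyse the committed step, were not called after LPS in either kind of cells. Their log2 fold changes were −0.19, −0.27 and 0.16 in silenced cells and 0.07, 0.21 and 0.19 in control cells. Under median-ratio scaling Pfkm was called higher in control cells, at 0.41 with adjusted p = 0.0462. Pfkl held 34.4 to 49.8% of their summed FPKM and Pfkm 11.9 to 18.9% over the 12 libraries. Pfkfb3 and Pfkfb4 make and break fructose 2,6-bisphosphate, the activator of phosphofructokinase. Pfkfb3 had 3.08, 1.27 and 2.83 FPKM in silenced cells with LPS, against 3.58, 6.29 and 11.9 FPKM in silenced cells without it, and fell there (−1.20 ± 0.35, adjusted p = 0.0138). In control cells Pfkfb3 had 3.09, 2.41 and 3.30 FPKM with LPS, against 4.95, 4.61 and 8.54 FPKM without, a difference that did not pass (−0.80 ± 0.35, adjusted p = 0.0779). Pfkfb4 fell in silenced cells (−0.49 ± 0.15, adjusted p = 0.0205) and control cells (−0.56 ± 0.15, adjusted p = 0.00967), although its silenced groups overlapped. In silenced cells the call of Pfkfb3 was lost without replicate 3 of the untreated or replicate 2 of the LPS libraries (adjusted p = 0.0533 and 0.06), and that of Pfkfb4 without replicate 1 or 2 of the untreated or replicate 2 or 3 of the LPS libraries (adjusted p = 0.0583 to 0.0842). Neither Pfkfb gene was called under all 4 scalings: quantile normalization gave Pfkfb3 an adjusted p of 0.0581 in silenced cells, and gave Pfkfb4 0.299 there and 0.123 in control cells.

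The aldolases Aldoa and Aldoc, which split fructose 1,6-bisphosphate, were not called, and Aldoa kept 90.0 to 92.7% of their summed FPKM. Quantile normalization called the main Aldoa record lower in both kinds of cells (−0.43 in each, adjusted p = 0.00778 in silenced and 0.00831 in control cells). The second Aldoa record (ENSMUSG00000114515, chr7:126800790-126809108, minus strand, GRCm38) lies just upstream of the main gene (chr7:126795234-126800751, minus strand) on the same strand. It had 0.157, 0 and 0 FPKM in silenced cells with LPS, against 1.43, 0.986 and 1.14 FPKM in silenced cells without it. In control cells it had 0.321, 0 and 0.136 FPKM with LPS, against 1.81, 0.908 and 1.61 FPKM without. It fell in both (limma adjusted p = 0.000707 and 0.000644) from a level near the filter, while the main Aldoa record had 172 to 256 FPKM. The second record passed the filter only through untreated libraries, so its p-values carry that selection.

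Triose phosphate isomerase Tpi1, Pgk1 and Pkm rose in control cells, by 0.36 to 0.48 on the log2 scale. Tpi1 had 157, 144 and 154 FPKM in control cells with LPS, against 114, 105 and 127.6 FPKM without (0.39 ± 0.09, adjusted p = 0.00443). Pkm had 815, 745 and 869 FPKM with LPS, against 626, 539 and 739 FPKM without (0.36 ± 0.11, adjusted p = 0.0201), and Pgk1 had 462, 414 and 538 FPKM with LPS, against 316, 286 and 421 FPKM without (0.48 ± 0.17, adjusted p = 0.0333). The Pgk1 groups overlapped. The calls of Pgk1 and Pkm were each lost in 4 of 12 fits that left out 1 library, namely replicate 1 or 2 of the untreated or replicate 1 or 3 of the LPS control libraries (adjusted p = 0.0664 to 0.124 for Pgk1 and 0.0524 to 0.0833 for Pkm). Under quantile normalization none of the 3 was called in control cells, with fold changes of 0.12, 0.08 and 0.10 for Tpi1, Pkm and Pgk1. Pgk1 and Pkm also missed the threshold with libraries scaled to a common sum (limma adjusted p = 0.0565 and 0.0502). They missed it with depth as a covariate (0.131 and 0.107) and with no filter on low values (0.088 and 0.0719). In silenced cells Tpi1, Pkm and Pgk1 were not called, at 0.13 ± 0.09, −0.09 ± 0.11 and 0.20 ± 0.17. There, median-ratio scaling called Tpi1 (0.41, adjusted p = 0.00597) and Pgk1 (0.48, adjusted p = 0.0491) higher, and quantile normalization called Pkm lower (−0.43, adjusted p = 0.00578). Pgam1 fell in silenced cells (−0.31 ± 0.08, adjusted p = 0.0082) and control cells (−0.21 ± 0.08, adjusted p = 0.0489). Under median-ratio scaling it was −0.033 with adjusted p = 0.778 in silenced cells, and the sign turned in control cells. The control call held in 2 of the 12 fits that left out 1 library, those without replicate 2 of control cells or replicate 3 of silenced cells, both without LPS (adjusted p = 0.0536 to 0.166 in the others).

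The own record of Gapdh, the glyceraldehyde 3-phosphate dehydrogenase gene, held a small share of the FPKM on Gapdh-like records. It was listed at 6.72 to 36.9 FPKM, below the hexokinase Hk3 in most libraries, while 71 other records in the table have a transcript at least 95% identical to a Gapdh transcript over at least 50% of its length. Of these copies 41 reached 1 FPKM, and together they held 2785 to 3830 FPKM per library, 98.9 to 99.8% of the sum of gene and copies. On its own record Gapdh had log2 fold changes for LPS of 0.68 ± 0.55 in silenced cells and 0.97 ± 0.55 in control cells, neither called; with the copies added the values were −0.086 (adjusted p = 0.507) and −0.017 (adjusted p = 0.9). Enolase Eno1 had 3 such copies with 74.2 to 76.5% of the sum, and its response was −0.12 ± 0.11 in silenced cells; in control cells it was 0.28 ± 0.11, adjusted p = 0.0534 alone and 0.33 with adjusted p = 0.0255 with the copies added. On its own record, median-ratio scaling called Eno1 higher in control cells (0.50, adjusted p = 0.00257) and quantile normalization called it lower in silenced cells (−0.35, adjusted p = 0.0306). Pgk1 had 2 copies with 19.6 to 21.9% of the sum, Pkm 1 copy with 3.45 to 4.02%, and Ldha 2 copies with 0.53 to 1.25%. Adding copies was tried after the data had been seen, and reads shared by copies may be counted more than once in these sums. Pkm also overlaps a record on the same strand, AC160637.1, listed at 20.5 to 63.2 FPKM, and Pfkp, Pfkm and G6pdx overlap Pitrm1, Senp1 and Ikbkg on the opposite strand; whether counting used the strand is not given in the sources used here.

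**Figure D3:**
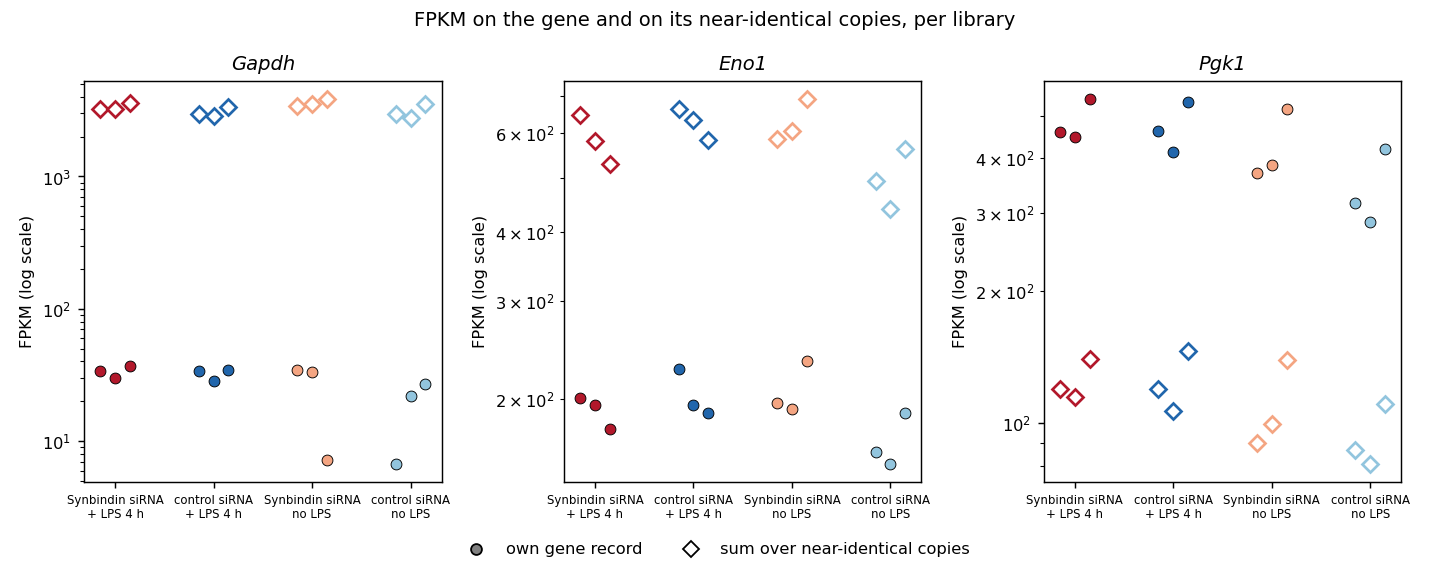
FPKM (y axes, log scale) of Gapdh, Eno1 and Pgk1 on the gene's own record (filled circles) and summed over near-identical copies in the table (open diamonds), per library, by group from left to right: silenced cells with LPS, control cells with LPS, silenced cells without LPS and control cells without LPS. The Gapdh copies hold 2785 to 3830 FPKM against 6.72 to 36.9 FPKM on Gapdh itself, and its lowest 2 values are replicate 3 of silenced cells and replicate 1 of control cells, both without LPS.

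Ldha, which turns pyruvate into lactate, was not called after LPS on the deposited values. It had 261, 248 and 256 FPKM in silenced cells with LPS, against 279.9, 259 and 316 FPKM in silenced cells without it (−0.15 ± 0.11, adjusted p = 0.274). Control cells had 338, 317 and 306 FPKM of Ldha with LPS, against 273, 238 and 329 FPKM without (0.20 ± 0.11, adjusted p = 0.147). The call depended on the scaling: median ratios called Ldha higher in control cells (0.43, adjusted p = 0.0087), and quantile normalization called it lower in silenced cells (−0.36, adjusted p = 0.0288) and turned the sign in control cells (−0.087). With Ldhb listed at 0, all FPKM of the 2 lactate dehydrogenase genes were on Ldha.

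Pyruvate dehydrogenase kinases inhibit pyruvate dehydrogenase, and Pdk1 is a known HIF-1 target. Pdk1 had 5.59, 5.01 and 5.97 FPKM in silenced cells with LPS, against 11.7, 12.2 and 17.0 FPKM in silenced cells without it. Control cells had 6.32, 5.46 and 6.63 FPKM of Pdk1 with LPS, against 16.3, 12.9 and 18.5 FPKM without. On the log2(FPKM + 1) scale it had the largest fall of the set in control cells, by 1.23 ± 0.15 (limma adjusted p = 5.59e-05). As ratios of mean FPKM there, the second Aldoa record (0.152 with LPS against 1.44 without) and Egln3 (0.139 against 0.741), both low, fell further. Pdk1 fell by 1.15 ± 0.15 in silenced cells (limma adjusted p = 8.8e-05). Every LPS library was below every untreated one. Pdk3 was not called (−0.16 ± 0.12 in silenced cells and 0.20 ± 0.12 in control cells), although median-ratio scaling and quantile normalization called it higher in control cells (adjusted p = 0.0171 and 0.0434). Pdk1 thereby made up 27.8 to 32.7% of the sum of both kinases in silenced cells with LPS and 25.5 to 31.8% in control cells with LPS, against 43.4 to 51.2% and 51.6 to 59.9% without LPS.

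Hif1a mRNA varied little and had 24.1 to 28.7 FPKM over the 12 libraries. Hif1a had 26.3, 26.6 and 24.8 FPKM in silenced cells with LPS, against 26.4, 27.1 and 25.2 FPKM in silenced cells without it. The values of Hif1a in control cells were 25.9, 27.6 and 28.7 FPKM with LPS, against 24.7, 26.9 and 24.1 FPKM without. The groups overlapped, and the LPS response was −0.02 ± 0.07 in silenced cells (adjusted p = 0.857) and 0.11 ± 0.07 in control cells (adjusted p = 0.218), with 95% intervals of −0.18 to 0.14 and −0.05 to 0.28. Under median-ratio scaling it was called higher in both, by 0.25 (adjusted p = 0.0175) in silenced cells and 0.33 (adjusted p = 0.00346) in control cells. HIF-1alpha protein, which is known to be controlled largely by its stability, was not measured here.

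The prolyl hydroxylase genes, whose products mark HIF-1alpha for destruction, and Bnip3, a mitophagy receptor of mitochondria, are themselves known HIF targets. Egln1 had 8.06, 7.44 and 10.1 FPKM in silenced cells with LPS, against 15.3, 14.1 and 24.8 FPKM in silenced cells without it (−0.97 ± 0.19, adjusted p = 0.00129). In control cells the Egln1 values were 9.39, 8.05 and 9.15 FPKM with LPS, against 13.3, 13.6 and 17.4 FPKM without (−0.67 ± 0.19, adjusted p = 0.0123). Egln1 thus fell in both, with no overlap, but in control cells it was not called under median-ratio scaling (adjusted p = 0.0772) or quantile normalization (adjusted p = 0.065), nor without replicate 3 of the untreated control libraries (adjusted p = 0.051). Egln3 stayed under 2 FPKM and passed the filter only through untreated libraries. It fell in silenced cells (−0.92 ± 0.25, limma adjusted p = 0.00902), a call that carries this selection. Its difference in control cells did not pass (−0.61 ± 0.25, limma adjusted p = 0.063).

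Bnip3 had 28.0, 29.7 and 53.9 FPKM in silenced cells with LPS, against 67.6, 63.7 and 129 FPKM in silenced cells without it. With control siRNA, Bnip3 had 41.4, 35.4 and 59.3 FPKM with LPS, against 83.1, 79.4 and 108 FPKM without. Replicate 3 was the highest of each Bnip3 group, and the LPS libraries were nonetheless below the untreated libraries of the same siRNA. The log2 fold change was −1.19 ± 0.31, adjusted p = 0.00722 in silenced cells and −0.99 ± 0.31, adjusted p = 0.019 in control cells, and in control cells it lost the call under median-ratio scaling (adjusted p = 0.0698). It was also lost there without replicate 3 of the untreated libraries (−0.86, adjusted p = 0.0676) and without replicate 1 or 2 of the LPS libraries (adjusted p = 0.0536 and 0.0693).

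Of the pentose phosphate enzymes, G6pdx encodes glucose 6-phosphate dehydrogenase, the gatekeeper of the pathway and its first source of NADPH. G6pdx had 32.0, 29.4 and 28.0 FPKM in silenced cells with LPS, against 41.9, 47.4 and 37.5 FPKM in silenced cells without it. Control cells had 44.1, 43.8 and 32.2 FPKM of G6pdx with LPS, against 60.2, 56.4 and 54.2 FPKM without. It fell in silenced cells (−0.49 ± 0.12, adjusted p = 0.00688) and control cells (−0.51 ± 0.12, adjusted p = 0.00535) without overlap, and neither call held under median-ratio scaling (adjusted p = 0.139 and 0.0504). Pgd, the second NADPH-making dehydrogenase, fell in silenced cells (−0.40 ± 0.14, adjusted p = 0.0359) and had 0.07 ± 0.14 in control cells. The call of Pgd in silenced cells was lost without replicate 1 or 2 of the untreated or replicate 2 or 3 of the LPS libraries (adjusted p = 0.0727 to 0.142), and under median-ratio scaling it was −0.12 with adjusted p = 0.457.

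Transketolase Tkt, which links the pathway back to glycolysis, was called higher with LPS in control cells alone. Tkt had 76.7, 71.3 and 68.4 FPKM in silenced cells with LPS, against 70.3, 77.8 and 85.8 FPKM in silenced cells without it. The values of Tkt in control cells were 93.6, 99.6 and 80.2 FPKM with LPS, against 63.4, 70.8 and 59.9 FPKM without. It rose in control cells without overlap (0.49 ± 0.10, adjusted p = 0.00237; adjusted p = 0.075 under quantile normalization) and overlapped in silenced cells (−0.11 ± 0.10, adjusted p = 0.423). Taldo1, transaldolase, fell in control cells (−0.34 ± 0.10, adjusted p = 0.016; −0.12 with adjusted p = 0.375 under median-ratio scaling, 0.0684 with depth as a covariate and 0.0713 without replicate 1 of the untreated control libraries) and was not called in silenced cells (−0.13 ± 0.10).

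Silencing of Synbindin called none of the 33 tested records with limma, either without LPS (28 of all genes, 0.214%) or after LPS (94 of all genes, 0.719%). At an unadjusted p under 0.05 there were 6 of the 33 records without LPS, against 1565 of all 13078 genes, and 7 after LPS, against 1697. The median log2 fold change of the records was 0.11 without LPS, with 25 above and 8 below 0, beside 0.01 for all genes tested, of which 51.5% were above 0. Without replicate 3 of untreated silenced cells the median was 0.017, with 18 above and 15 below 0, without replicate 3 of untreated control cells it was 0.21, with 27 above and 6 below, and without replicate 1 of them it was 0.060. After LPS it was −0.06, with 13 above and 20 below 0, beside −0.03 for all genes. It was 0.014, with 17 above and 16 below 0, without replicate 2 of silenced cells with LPS. It was −0.020 without replicate 1 of control cells with LPS, −0.020 under median-ratio scaling and −0.19 with depth as a covariate. Without LPS the silenced and control libraries did not overlap for 6 records, against 18.2% of all genes: Hk3, Tpi1, Eno1, Slc2a6 and Pgd were higher (9.86% of all genes) and G6pdx was lower (8.35% of all genes) in silenced cells. After LPS they did not overlap for 9 records, against 18.9% of all genes: Hk3, Slc2a6 and Slc16a1 were higher (7.62% of all genes) and Gpi1, Pfkm, Pkm, Ldha, G6pdx and Tkt lower (11.3% of all genes) in silenced cells. Hk3, Slc2a6 and G6pdx therefore stood apart in the same direction at both times, and the share of all genes that did so was not counted. These 3 and the other genes given next were picked after their values had been seen.

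Hk3 came closest to the threshold. It had 39.2, 42.1 and 38.1 FPKM in silenced cells without LPS, against 28.7, 29.0 and 31.8 FPKM in control cells without LPS (0.40 ± 0.07, 95% interval 0.24 to 0.57, limma adjusted p = 0.0607). With LPS it had 42.0, 40.9 and 40.2 FPKM in silenced cells, against 33.4, 29.5 and 32.5 FPKM in control cells (0.36 ± 0.07, 95% interval 0.20 to 0.52, limma adjusted p = 0.0601). The silenced libraries were all above the control libraries by a similar margin at both times, and the call depended on the setting: with a stricter filter of 5 FPKM the adjusted p was 0.0498 without LPS and 0.0448 after LPS, and with median-ratio scaling 0.0903 and 0.0455. Macrophage marker sums were also higher in silenced cells, at 2260 to 2732 FPKM against 1665 to 1797 FPKM without LPS and 2264 to 3009 FPKM against 1676 to 2063 FPKM after LPS, and their part in the Hk3 values was not tested.

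For Slc2a6 the silenced values quoted above exceeded the control values by 0.41 ± 0.13 without LPS and 0.37 ± 0.13 after LPS, and neither passed (limma adjusted p = 0.247 and 0.23). The silenced values of G6pdx lay below all control values of their time, at −0.43 ± 0.12 without LPS and −0.40 ± 0.12 after LPS (limma adjusted p = 0.225 and 0.184). Of the 12 fits that left out 1 library, the second of these passed in 1, without replicate 3 of control cells with LPS, the lowest control library of that group at 32.2 FPKM (−0.55, adjusted p = 0.0475). After LPS, Gpi1, Tkt, Ldha and Pfkm had log2 fold changes of −0.40, −0.33, −0.33 and −0.50 in silenced against control cells, with 95% intervals of −0.67 to −0.12, −0.56 to −0.10, −0.57 to −0.09 and −0.81 to −0.19, and with adjusted p between 0.152 and 0.228 (limma). Hif1a differed by 0.06 ± 0.07 without LPS and −0.08 ± 0.07 after LPS, with 95% intervals of −0.11 to 0.22 and −0.24 to 0.08.

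**Figure D4:**
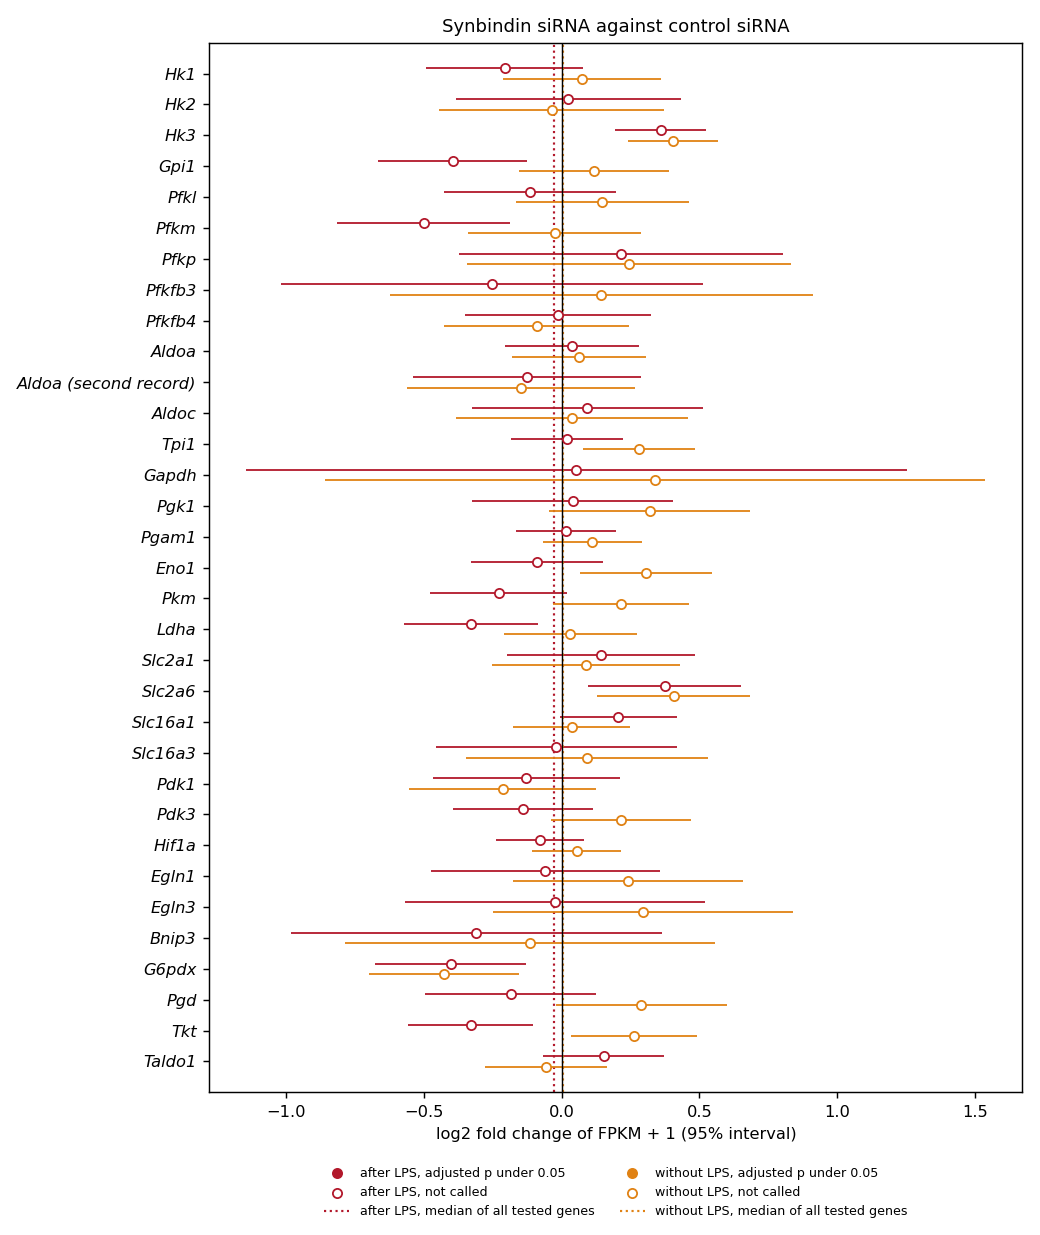
Log2 fold change of FPKM + 1 (x axis) for silenced against control cells after LPS (red, upper point of each pair) and without LPS (orange, lower point), for the 33 tested records (y axis); lines are 95% intervals from limma and dotted lines mark the median of all tested genes. All points are open because no record had an adjusted p under 0.05; Hk3 and Slc2a6 lie to the right and G6pdx to the left at both times.

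Whether silencing altered the response to LPS was tested as the difference between the response in silenced cells and that in control cells. None of the 33 records was called (8 of all genes, 0.0612%), and 7 had an unadjusted p under 0.05, against 1480 of all 13078 genes. The difference was below 0 for 24 of the 33, against 54.8% of all genes, with a median of −0.19 beside −0.03. Its lowest values were Tkt (−0.59 ± 0.15, adjusted p = 0.223), Gpi1 (−0.51 ± 0.18, adjusted p = 0.33), Pfkm (−0.48 ± 0.20, adjusted p = 0.415), Pgd (−0.47 ± 0.20, adjusted p = 0.412) and Pkm (−0.45 ± 0.16, adjusted p = 0.348). The 5 genes that rose with LPS in control cells and were not called in silenced cells (Gpi1, Tpi1, Pgk1, Pkm and Tkt) are therefore not shown to differ between them. The depth estimate, which is weakly founded, was highest in silenced cells with LPS. With it as a covariate, a choice made after seeing the data, the difference was below 0 for 29 of the 33, against 52.7% of all genes. Its median was then −0.35 beside −0.02, and again none was called. The median was −0.14 under median-ratio scaling, with 20 of the 33 below 0, −0.11 under quantile normalization and −0.13 with copies added. When 1 library was left out it was −0.058, its value nearest 0, without replicate 3 of untreated silenced cells, −0.12 without replicate 1 of untreated control cells and −0.29 without replicate 3 of untreated control cells.

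Replicate 3 stood out for these genes within the groups. It held the highest value for 17 of 33 records in silenced cells with LPS, 18 in control cells with LPS, 20 in silenced cells without LPS and 23 in control cells without LPS, while over all genes it was highest for 29.7 to 34.2%. In both untreated groups at once replicate 3 was highest for 18 of 33 records, against 14.6% of all genes, and in all 4 groups for 8 of 33, against 3.27%: Gpi1, Pfkm, Pfkp, Aldoc, Pgk1, Slc16a3, Pdk1 and Bnip3. Among 19 other HIF targets, 4 did so in all 4 groups: Fam162a, Ndrg1, Ero1l and Bnip3l. Bnip3 is an example, with 129 FPKM in replicate 3 of silenced cells without LPS beside 67.6 and 63.7 FPKM in the other 2 libraries. The labels do not say what the number marks, and the untreated replicate 3 libraries were also the deepest of their groups (12.4 and 11.7 M fragments in silenced and control cells, by the rough estimate); their part was not tested. Without replicate 3 of all groups, a choice made after seeing the data, 3 records were higher and 10 lower with LPS in silenced cells (11.1% and 29.9% of all genes), and 10 higher and 9 lower in control cells (14.0% and 27.5% of all genes).

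**Figure D5:**
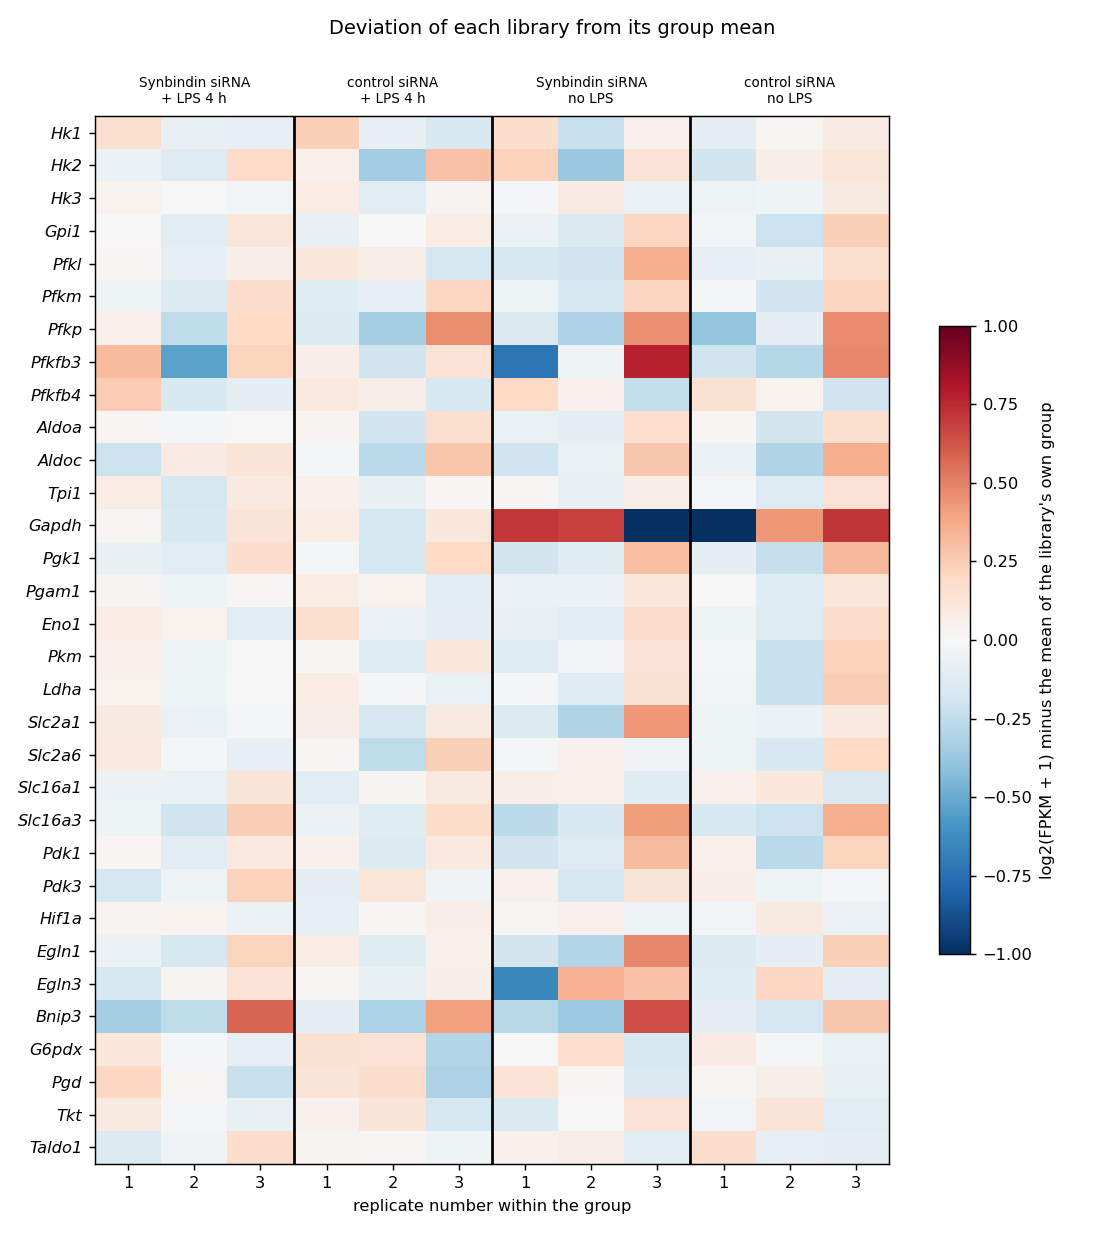
Deviation of each library from the mean of its own group in log2(FPKM + 1) (colour, red above and blue below, limited to −1 and 1) for 32 tested records (rows, the second Aldoa record left out) in the 12 libraries (columns), grouped as silenced cells with LPS, control cells with LPS, silenced cells without LPS and control cells without LPS. Replicate 3 is red for most glycolytic genes in both untreated groups, and Gapdh has strongly blue cells in 2 untreated libraries.

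The rest of the same pathways, taken from lists of other members, held 99 tested genes in 8 lists. For silencing, limma called none of them without LPS. At an unadjusted p under 0.05 there were 13 of the 99 without LPS and 22 after LPS, against 1565 and 1697 of all 13078 genes. After LPS the single call was Sdha, a subunit of succinate dehydrogenase, with 48.2, 49.6 and 48.0 FPKM in silenced cells against 64.4, 68.2 and 60.8 FPKM in control cells (−0.40 ± 0.07, limma adjusted p = 0.0296). That call was lost in 6 of 12 fits that left out 1 library (adjusted p = 0.0505 to 0.124): without any 1 of the 3 silenced libraries with LPS, replicate 1 or 2 of control cells with LPS, or replicate 1 of control cells without it. With only the groups compared it had an adjusted p of 0.142. For LPS, 3 of 19 tested other HIF targets rose and 8 fell in silenced cells, and 2 rose and 8 fell in control cells, beside the shares of all genes given above (13.0% higher and 35.5% lower in silenced cells, 15.3% and 32.9% in control cells). In control cells the ankyrin repeat gene Ankrd37 fell by 2.18 ± 0.21 and the mTORC1 inhibitor Ddit4 fell by 1.44 ± 0.19. Of 12 tested HIF regulators 2 rose and 4 fell in silenced cells and 3 rose and 3 fell in control cells. There Cited2, whose product competes with HIF-1alpha for the coactivator p300, rose by 1.05 ± 0.15 while Ep300, which encodes p300, fell by 0.92 ± 0.09.

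The next counts, from the deposited values, stand beside 13.0% of all genes called higher and 35.5% lower in silenced cells. In control cells these shares were 15.3% and 32.9%, and no list was tested as a set. Among 13 tested other glycolytic genes none rose and 4 fell in silenced cells, and 2 rose and 5 fell in control cells. There the neuronal enolase Eno2 fell by 1.61 ± 0.18 and Pfkfb2 fell by 1.52 ± 0.15, while the muscle enolase Eno3 rose by 0.67 ± 0.16. The other rise there was Eno1b, a copy 99.5% identical to Eno1 that was added to Eno1 above and can share its reads. Of 5 other tested genes of glucose and lactate transport, 2 fell in each kind of cells and none rose on the deposited values. The glucose transporter Slc2a3 had 3.91, 3.18 and 3.02 FPKM in silenced cells with LPS, against 7.95, 7.78 and 8.18 FPKM without, and 3.66, 4.10 and 3.15 FPKM in control cells with LPS, against 6.73, 7.74 and 8.25 FPKM without (adjusted p = 1.76e-05 and 6.37e-05), so it fell while Slc2a1 and Slc2a6 rose. Of 10 tested other pentose phosphate genes 1 rose and 3 fell in silenced cells and 2 rose and 2 fell in control cells, where H6pd, the dehydrogenase of the endoplasmic reticulum, fell by 0.76 ± 0.16. Among 10 tested genes of pyruvate entry, 1 rose and 4 fell in silenced cells and 2 rose and 1 fell in control cells, where Pdpr, which regulates the pyruvate dehydrogenase phosphatase, fell by 1.40 ± 0.11. Of 20 tricarboxylic acid cycle genes none rose and 5 fell in silenced cells and 4 rose and 4 fell in control cells, where the cytosolic isocitrate dehydrogenase Idh1 fell by 0.57 ± 0.13. Of 11 genes of gluconeogenesis and glycogen none rose in either, 5 fell in silenced cells and 4 in control cells, where the glycogen synthase Gys1 fell by 1.28 ± 0.19 and the phosphorylase Pygb fell by 1.09 ± 0.12. The balance of most of these lists moved with the scaling. Median ratios called 22.7% of all genes higher and 21.7% lower in silenced cells, and 24.1% and 22.5% in control cells. With median ratios the counts of higher and lower calls were 1 and 2 in silenced cells and 4 and 2 in control cells for other glycolytic genes. They were 3 and 1 in both for pyruvate entry, and 5 and 2 in silenced cells and 7 and 2 in control cells for the tricarboxylic acid cycle. They were 2 and 3 in silenced cells and 4 and 2 in control cells for other pentose phosphate genes, and 2 and 2 in silenced cells and 4 and 2 in control cells for HIF regulators. They were 0 and 1 in silenced cells and 1 and 1 in control cells for glucose and lactate transport. In both kinds of cells they were 0 and 3 for gluconeogenesis and glycogen, and 3 and 7 for other HIF targets. The values named in these lists for control cells had adjusted p between 1.7e-06 and 0.0044 (limma), and each kept its direction under median-ratio scaling.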

How the data were processed

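Libraries were strand-specific, per the labels' protocols, and HISAT2, StringTie and build GRCm38 are named in the submitters' processing notes, with no versions or annotation release. The authors deposited 1 table of FPKM per gene; they are not counts, so no count model was used, and the step size of low values gave only a rough depth (only 7.27 to 14.1% of those values were whole steps at a tolerance of 1%). Near-identical copies can share reads in such a table.

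The 13078 genes at 1 FPKM or more in at least 3 of 12 libraries were tested as log2(FPKM + 1) with limma 3.58.1 (R 4.3.3), 4 group means, 8 residual degrees of freedom, an intensity trend and 2-sided p-values adjusted by Benjamini-Hochberg over all of them. The pseudocount of 1 understates changes of low genes. The fit was tested on simulated data. Copies were found with blastn 2.17.0.

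The members and lists were chosen with earlier results of these data known. Values per library were to be given for members called on silencing, for Hif1a, and for the 4 highest and 4 lowest calls of LPS in control cells; of other lists, up to 3 calls, of which 1 is not reported here. Hk1, Hk3, Egln1, G6pdx, the Pfkfb, Tpi1, Pgk1, Pkm and Ldha values were added after they had been seen. Alternatives were other scalings, pseudocount, filters, no trend, only the groups compared, the replicate number as a block and each library left out; copies added, depth as a covariate and leaving out replicate 3 of all groups were chosen after seeing the data. Over all genes tested, same-numbered libraries deviated together only weakly (correlation −0.03 to 0.19 over 18 pairs), so the numbers were not taken to pair libraries. For the records of this set replicate 3 stood out across groups, as given above. With the number as a block, 3 records were higher and 13 lower with LPS in silenced cells (13.4% and 37.0% of all genes). In control cells 8 were higher and 12 lower (16.0% and 34.2% of all genes).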

Additional observations from a re-analysis of the deposited data

How the results depend on the processing

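Without LPS, silencing called 0 of the 33 records in the fit reported. With the stricter filter it called 1 of 31 (Hk3), beside 39 of 8474 genes. Over all genes the fit reported called 28, against 10 with no trend and 6 with only the groups compared. The replicate block called 48, and the fit without replicate 3 of all groups called 62. After LPS it called 0 records, against 2 (Gpi1 and Pfkm) with depth as a covariate, 1 (Hk3) with median-ratio scaling, 1 (Pfkm, −0.50, adjusted p = 0.0245) with the replicate block and 1 (Hk3) with the stricter filter. Over all genes that comparison called 94, against 50 with no trend, 38 with quantile normalization, 33 without replicate 3 of all groups and 0 with only the groups compared, where limma had 1622 genes at an unadjusted p under 0.05. LPS in control cells called 17 records and 11 with quantile normalization. The difference of responses called 8 genes, against 4 with no trend, 5 with a pseudocount of 0.1 and 2 without replicate 3 of all groups. Among the calls and the genes with copies, the sign turned for Gapdh with copies added (−0.086 in silenced and −0.017 in control cells) and Pgam1 with median-ratio scaling (0.01 in control cells). Apart from quantile normalization and the settings named, the counts of records called stayed within 1.5 times; the cause of the shifts was not tested.

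Leaving out 1 library at a time gave 0 to 0 records for silencing without LPS, 0 to 1 after LPS, 11 to 14 for LPS in silenced cells, 13 to 19 in control cells and 0 to 0 for the difference of responses. Over all genes the ranges were 3 to 41, 10 to 91, 5462 to 6418, 5602 to 6322 and 0 to 20 in the same order. The same-numbered libraries correlated best with their own number in 22 of 36 cases, a hint from the data and not the design. FPKM without counts give no counting interval, and Egln3 and the second Aldoa record lie near the detection limit of this depth.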
